A study of Mus musculus with 2197 samples.

Results

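The genes described here encode the digestive enzymes of the exocrine pancreas, their inhibitors and the proteins of the zymogen granules that store them. They were taken from a list of 31 acinar secretory genes, all 31 of which were present among the 40824 genes of the Smart-seq2 read count table. In each of 2 droplet libraries, 30 of the 31 were matched by gene identifier, and Amy2b was not matched. The study profiled single cells of the embryonic mouse pancreas to map how the pancreatic lineages separate. Smart-seq2, a plate-based full-length method, was used on 2195 sorted cells of 29 groups, and 2 droplet libraries were made from whole E14.5 pancreas (E, embryonic day). Cells of each group carried a number in their titles, here called a set. The labels do not say whether a set is a litter, a sort or a plate.

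The main series was made of Pdx1-Cre;Rosa-RFP+ cells, in which a Cre recombinase driven by Pdx1, a gene of the early pancreatic epithelium, switches on a permanent red label, so that every pancreatic lineage is marked. Its 604 cells fell into 2 sets for E10.5, 2 for E11.5, 4 each for E12.5, E13.5 and E14.5, and 3 for E15.5. At E11.5, Ptf1a-CreER;Rosa-RFP+ cells (79 cells, 3 sets) and Ngn3-Cre;Rosa-RFP+ cells (44 cells, 2 sets) marked descendants of cells expressing Ptf1a, an acinar and progenitor factor, or Neurog3, the factor of endocrine progenitors. An Ngn3-GFP knock-in strain gave Ngn3-GFPlow and Ngn3-GFPhigh cells from E13.5 through E15.5 and Ngn3-GFP+ cells at E10.5, E12.5, E16.5 and E17.5. Ins1-RFP+ (beta cell reporter, 39 cells, 2 sets) and Gcg-P2A-GFP+ cells (alpha cell reporter, 36 cells, 2 sets) came from E15.5 embryos, and 11 Gcg-GFP+ cells of 1 set from E17.5. Sox9-CreER;Rosa-RFP+ cells were sorted as ductal cells at E16.5 (55 cells, 2 sets) and E17.5 (34 cells, 2 sets). The time at which CreER was induced is not given in the labels, and neither strain backgrounds nor the sex of the embryos are stated. Pdx1-GFP transgenic embryos supplied Pdx1-GFP+ cells at E9.5, E10.5 and E11.5 and Pdx1-GFPhigh cells at E10.5. Explants were E13.0 dorsal pancreata of Ins1-RFP mice, 3 to a membrane, grown for 2 days without or with 10 µM U0126, a MEK inhibitor, before Ins1-RFP+ cells were sorted.

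Acinar cells make digestive enzymes mostly as inactive zymogens, pack them into granules and release them into the ducts when secretagogues arrive. During development, tip cells of the branching epithelium carry low levels of a few of these transcripts, Cpa1 among them, while they are still progenitors, and acinar cells later raise the whole set. The PTF1 complex, built from Ptf1a, Rbpjl or Rbpj and a common E protein, is known to drive many acinar secretory genes through a DNA element that joins an E-box to a TC-box.

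Cells held between 176524 and 2118160 reads assigned to genes (median 809389) and 4339 to 12149 detected genes, and no cell was an exact copy of another. Since cells of one embryo or plate are not replicates, the reads of all cells in a set were added up. The 82 sets held 6 to 71 cells and 2838610 to 79253014 reads, and 6 of them had fewer than 10 cells. Levels are given in CPM, the share of a set's gene-assigned reads scaled to the usual common total, without the ERCC spike-ins. In a set sum, fewer cells of a type and less RNA per cell cannot be told apart. Reads were not tagged with molecular identifiers, so intervals and floors cover counting error only, and the p-values reflect set-to-set spread alone, some or all of which could be technical.

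Summed over the 31 genes, transcripts of the digestive program were already present at E10.5 and took up a large part of the transcriptome at E15.5. The summed level of the Pdx1-Cre sets was 469 and 321 CPM at E10.5, and 897 and 1117 CPM at E11.5. It was 3020, 1728, 2201 and 1768 CPM at E12.5, and 2783, 3153, 2674 and 1870 CPM at E13.5. At E14.5 the 4 sets held 4782, 10921, 6119 and 2727 CPM, and at E15.5 the 3 sets held 78939, 109169 and 44175 CPM. The sets of E12.5 and E13.5 overlapped, 1 E14.5 set lay within the E13.5 range, and every E15.5 set lay above every earlier set. The E15.5 sets devoted 7.89, 10.9 and 4.42% of their reads to these genes. The mean at E15.5 was 12.6-fold the mean at E14.5 and 196-fold that at E10.5.

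**Figure D1:**
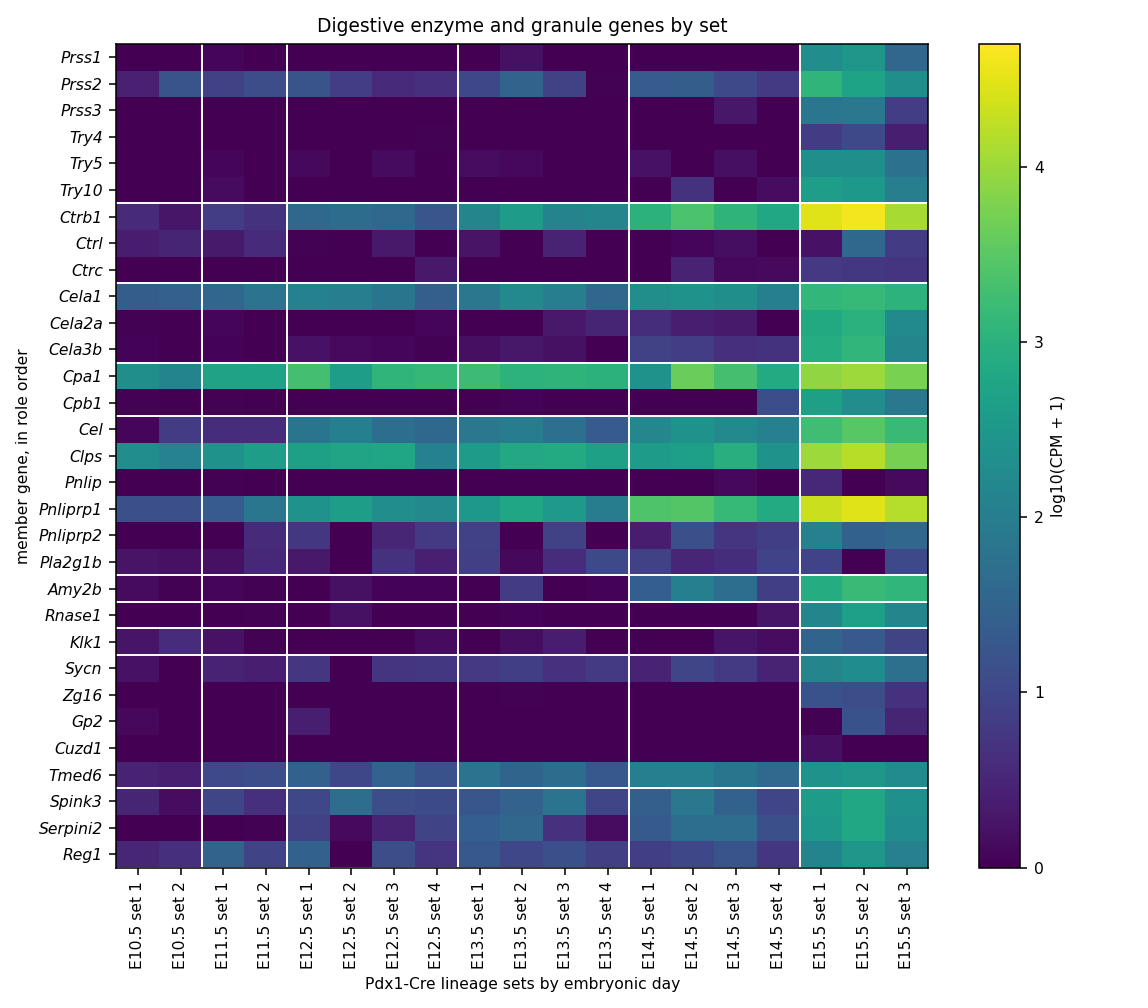
Heat map of the 31 genes, in rows by role, over the Pdx1-Cre sets in columns by embryonic day, with color for log10(CPM + 1). Cpa1 and Clps are colored from E10.5, while Prss1 is dark in the E14.5 sets (0 CPM) and reaches 34.1 to 307 CPM at E15.5.

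The members did not appear together. A gene was counted as present from the day on which the mean over sets reached 10 CPM and stayed there on all later days. By that measure 4 genes were present at E10.5 (Cela1, Cpa1, Clps and Pnliprp1), and Tmed6 followed at E11.5. Ctrb1, Cel and Spink3 were added at E12.5, Prss2 and Serpini2 at E13.5, and Amy2b at E14.5. At E15.5 another 13 genes met this measure, namely Prss1, Prss3, Try5, Try10, Ctrl, Cela2a, Cela3b, Cpb1, Pnliprp2, Rnase1, Klk1, Sycn and Reg1. Of these, Reg1 had been over 10 CPM before, with means of 19.4, 10.99 and 11.8 CPM from E11.5 to E13.5, and stood at 8.99 CPM at E14.5. The remaining 7 genes, Try4, Ctrc, Pnlip, Pla2g1b, Zg16, Gp2 and Cuzd1, did not reach it by E15.5. Zg16 stood just under the level at 9.87 CPM and Ctrl just over it at 14.51 CPM.

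Across all 6 days, 22 of the 31 genes had enough reads for a test of the trend with day, and 19 of them rose, none fell. Among the 16343 genes tested, 3.11% were called higher with day and 1.45% lower. The median slope of the 22 genes was 1.51 log2 units per day, against 0.01 for all tested genes. The exceptions were Ctrl (0.62 ± 0.31 per day, SE, adjusted p = 0.324, edgeR), Klk1 (0.78 ± 0.32, adjusted p = 0.194) and Pla2g1b (0.65 ± 0.26, adjusted p = 0.191). The steepest slopes were those of Rnase1 (5.56 ± 0.54 per day) and Cela2a (4.28 ± 0.46 per day), genes that were nearly silent until E14.5. The shallowest of those called were Reg1 (0.93 ± 0.21) and Cpa1 (0.97 ± 0.14), genes already present in early cells.

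In CPM, most of the rise fell into the last day, when the mean summed level went from 6137 to 77427.5 CPM. On a fold scale that step was 12.6-fold, within 196-fold since E10.5, so the earlier days also held a large part. Between E14.5 and E15.5, 20 of the 29 genes tested rose and none fell, whereas 0.919% of 18710 genes were called higher and 0.337% lower. A gene can pass the filter on low reads through E15.5 alone, so the count describes these genes and is not independent support. The median change of the 29 was 5.09 log2 units against 0.00 for all tested genes. Not called were Cpa1, Ctrc, Ctrl, Gp2, Klk1, Pla2g1b, Pnliprp2, Prss3 and Serpini2, and Pnlip and Cuzd1 had too few reads for the test. The count was 8 without the sets of fewer than 10 cells, a choice made after seeing the data. It was 12 without set 4 of E14.5, 11 without set 1 of E15.5 and 9 without set 2 of E15.5, a set of 8 cells with the highest summed level.

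The earlier steps that were tested had smaller median changes, and neighbouring steps share their sets. Steps before E12.5 were not tested. From E12.5 to E13.5 none of 29 tested genes was called by edgeR, against 0.0% of all 18710 genes in either direction. Without adjustment, 4 were higher and 2 lower at p under 0.05, against 958 higher and 984 lower of all 18710 genes. DESeq2 called 1 member higher, against 99 of all genes. From E13.5 to E14.5 again none was called by edgeR, with 0.0% of all genes called in either direction. At an unadjusted p under 0.05, 12 members were higher, against 778 of all genes, and DESeq2 called 2 higher, against 65. The median change was 0.48 log2 units in the first of these steps (0.04 over all genes) and 0.64 in the other (-0.06 over all genes).

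**Figure D2:**
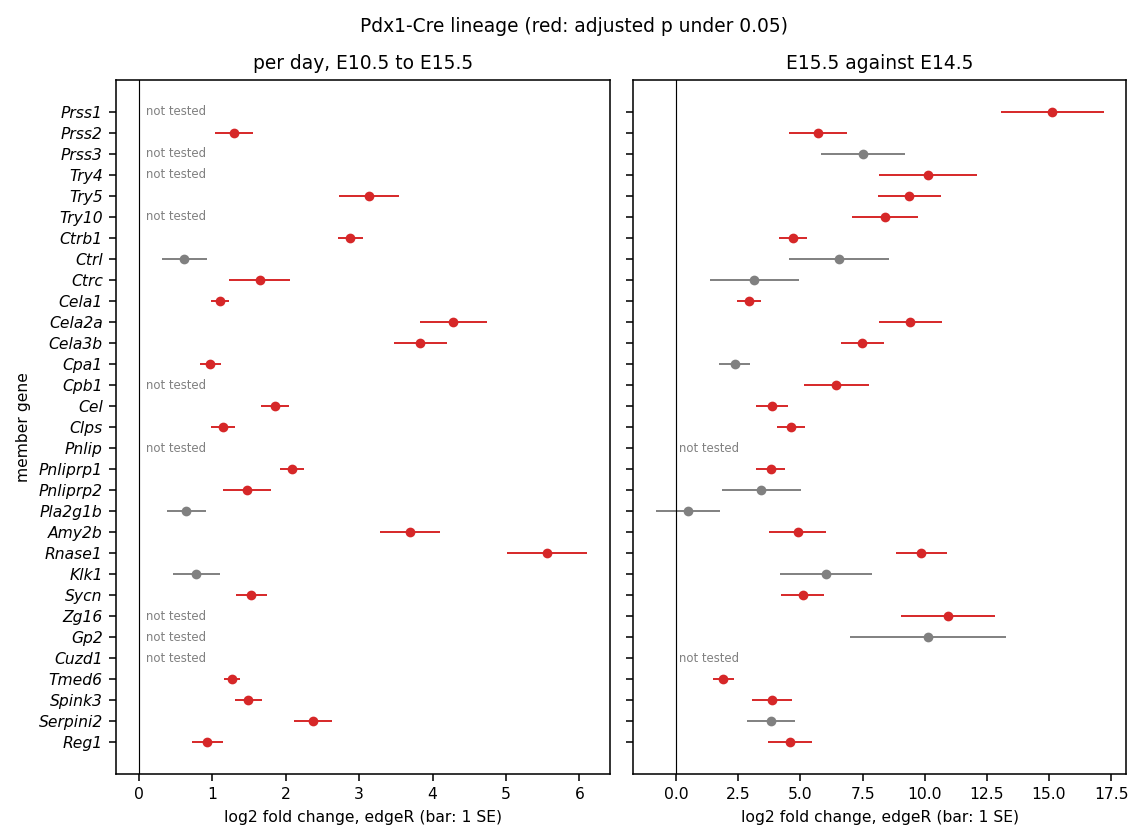
Log2 fold change of each gene per day (left) and between E15.5 and E14.5 (right) in Pdx1-Cre sets, with bars of 1 standard error and red points for adjusted p under 0.05 (edgeR). On the right 20 genes are red, all above 0, and Pla2g1b (0.47) lies nearest to 0.

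Among proteases, the trypsinogens, zymogens that start the activation cascade in the gut, were late in the Pdx1-Cre series. Prss1 had 0 CPM in all 4 E14.5 sets and 200, 307 and 34.1 CPM in the E15.5 sets. That made its mean at least 3726-fold higher at E15.5, the floor being 3 reads over the E14.5 sets, and the change passed the test (adjusted p = 0.0105, edgeR). Outside this series, Pdx1-GFP+ sets of E9.5 held 2.55, 5.15 and 4.10 CPM of Prss1. No Pdx1-Cre set before E15.5 exceeded 0.602 CPM. Prss2, the anionic trypsinogen, was the 1 trypsinogen that reached 10 CPM earlier. It stood at 21.8, 23.5, 9.82 and 5.38 CPM at E14.5 and at 1166, 534 and 216 CPM at E15.5, a 42.2-fold difference of means (5.69 ± 1.17 log2, adjusted p = 0.0236, edgeR). Try5 rose from 0.331 to 165 CPM, Try10 from 1.09 to 278 CPM and Try4 from 0 to 5.65 CPM, while Prss3 went from 0.253 to 49.6 CPM without passing the test (adjusted p = 0.0657, edgeR). All E15.5 sets lay above all E14.5 sets for each of the 6 trypsinogens. These genes lie close together on chromosome 6 (GRCm38, from 41302269 for Try4 to 41525079 for Prss2), and their transcripts are similar. Of the 50-base windows of their GENCODE transcripts, 54.9% of Prss1, 66.1% of Prss3, 64.2% of Try4, 47.6% of Try5 and 40.8% of Try10 also occurred in another trypsinogen-type transcript, against 7.83% of Prss2. How reads were shared among them is therefore uncertain.

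Ctrb1, chymotrypsinogen B, was the member with the highest level per length at E15.5, at 31539 CPM per kilobase. Its sets held 2.56 and 0.95 CPM at E10.5, 38.1, 45.02, 37.3 and 16.6 CPM at E12.5, and 138, 389, 126.5 and 144 CPM at E13.5. They reached 1062, 2304, 1162 and 654 CPM at E14.5 and 29382, 42132 and 12412 CPM at E15.5. From E12.5 on, no set of one day overlapped a set of the next. The step to E15.5 was 4.69 ± 0.57 log2 (adjusted p = 0.000475, edgeR), and those of the 2 previous days were 2.51 ± 0.51 (adjusted p = 0.202) and 2.72 ± 0.51 (adjusted p = 0.296). Its relatives were low. Ctrl, a chymotrypsin-like protease, stood at 0.69, 37.1 and 5.76 CPM at E15.5, so that 1 set carried most of its signal. Ctrc, which can degrade trypsinogen, held 5.02, 4.76 and 4.28 CPM. Its gene model on chromosome 4 (141814962 to 141846359, minus strand) contains that of Cela2a (141814962 to 141826160, minus strand). The assignment of reads between these genes is therefore uncertain.

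The elastases, which cleave at small residues, were split in time. Cela1 was at 23.2 and 26.5 CPM at E10.5, at 205, 249, 218 and 104 CPM at E14.5, and at 1315, 1380 and 1073 CPM at E15.5. Its E15.5 sets lay close together and above all others, and the last step measured 2.93 ± 0.50 log2 (adjusted p = 0.00881, edgeR). Cela2a and Cela3b were near 0 for longer. Cela2a held 3.17, 1.49, 1.23 and 0.04 CPM at E14.5 and 725, 1010 and 172 CPM at E15.5. Cela3b held 7.40, 6.10, 3.39 and 3.89 CPM and then 805, 1254 and 141 CPM. Both were higher in every E15.5 set, by 428-fold and 141-fold in the means.

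Of the carboxypeptidases, which trim amino acids from the C-terminus, Cpa1 was early and Cpb1 late. Cpa1 was at 221 and 129 CPM at E10.5, 511 and 531 CPM at E11.5, and 1978, 430, 1168 and 1356 CPM at E12.5. At E14.5 its sets ranged widely, at 256, 4489, 2031 and 731 CPM, and at E15.5 they held 8338, 10184 and 5786 CPM. The E15.5 sets were above all E14.5 sets, but the spread at E14.5 was large and the step did not pass the test (2.35 ± 0.64 log2, adjusted p = 0.0731, edgeR). Cpb1 had 12.55 CPM in 1 of the E14.5 sets and 0 in the other 3, followed by 467, 196 and 74.4 CPM at E15.5.

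Genes of lipid digestion gave the widest range of patterns. Clps, colipase, the cofactor of pancreatic lipase, was at 197 and 120 CPM at E10.5, at 373, 452, 896 and 263 CPM at E14.5, and at 10361, 15363 and 5363 CPM at E15.5. Between E11.5 and E14.5 its means stayed between 331 and 569 CPM with overlapping sets, and only the last step passed the test (4.64 ± 0.56 log2, adjusted p = 0.000475, edgeR). Pnliprp1, a lipase-related protein with little lipase activity, rose with day, although its sets of E12.5 (165 to 433 CPM) and E13.5 (96.1 to 606 CPM) overlapped. Its sets held 12.9 and 12.8 CPM at E10.5, 2510, 2772, 1398 and 752 CPM at E14.5 and 21330, 29053 and 15056 CPM at E15.5. Cel, the bile salt-dependent lipase, went from 149, 249, 177 and 110 CPM at E14.5 to 1777, 3042 and 1448 CPM at E15.5. Pnlip, the main triglyceride lipase of the adult gland, was all but missing. It had 2.27, 0 and 0.30 CPM in the E15.5 sets, and no Pdx1-Cre cell of any day reached 100 CPM. Pnliprp2, a lipase of broad specificity, held 111, 28.1 and 33.9 CPM at E15.5 and was not called (adjusted p = 0.28, edgeR). Pla2g1b, the pancreatic phospholipase A2, was at 7.05, 2.17, 3.18 and 7.70 CPM at E14.5 and 7.89, 0 and 10.1 CPM at E15.5. Its E15.5 mean was close to that of E14.5 (1.19-fold, 0.47 ± 1.30 log2, adjusted p = 0.907, edgeR).

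Amy2b stood for pancreatic amylase, which digests starch. It held 24.3, 106, 48.8 and 6.29 CPM at E14.5 and 829.1, 1450 and 1261 CPM at E15.5 (4.88 ± 1.16 log2, adjusted p = 0.0465, edgeR). GENCODE lists this copy as an unprocessed pseudogene, and near-identical amylase genes lie beside it, so reads may belong to other copies. Rnase1, the secreted ribonuclease, had the largest fold among genes with reads on both days. It went from 0, 0, 0.04 and 0.83 CPM to 142, 443 and 134 CPM, or 1110-fold. Klk1, tissue kallikrein, held 31.98, 19.5 and 8.22 CPM at E15.5, above all E14.5 sets, without passing the test (adjusted p = 0.109, edgeR).

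The granule proteins differed among themselves. Sycn, syncollin, a protein of the inner granule membrane, was at 1.76, 8.54, 5.38 and 1.78 CPM at E14.5 and at 134, 190 and 54.1 CPM at E15.5 (5.09 ± 0.87 log2, adjusted p = 0.00982, edgeR). Zg16, a granule lectin, had no read at E14.5 and held 14.1, 11.8 and 3.73 CPM at E15.5. Gp2, the major glycoprotein of the adult granule membrane, held 0.08, 14.6 and 2.12 CPM and was not called (adjusted p = 0.143, edgeR). Cuzd1, another zymogen granule protein, had reads in 1 E15.5 set only (0.53 CPM). Tmed6, a cargo receptor of the early secretory pathway, behaved otherwise, with 1.94 and 1.47 CPM at E10.5, 106, 108, 65.5 and 39.7 CPM at E14.5 and 262, 306 and 187 CPM at E15.5. Its change per day was 1.27 ± 0.10 log2 (adjusted p = 2.71e-07, edgeR), with no overlap between E14.5 and E15.5 sets.

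The inhibitors and Reg1 had their highest levels at E15.5. Spink3, the trypsin inhibitor that guards against early activation, was at 25.4, 74.2, 27.9 and 8.66 CPM at E14.5 and 385, 631 and 226 CPM at E15.5 (3.85 ± 0.82 log2, adjusted p = 0.0265, edgeR). Serpini2, a pancreatic serpin, moved from 20.1, 48.6, 47.8 and 13.3 CPM to 315, 643 and 192 CPM, just short of the threshold (adjusted p = 0.0586, edgeR). Reg1, a secreted C-type lectin of the Reg family, was present at 30.5 and 8.27 CPM at E11.5, did not exceed 27.99 CPM in any set from E12.5 to E14.5, and held 130, 307 and 111 CPM at E15.5. For all 3 genes every E15.5 set lay above every E14.5 set.

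Per kilobase of the gene length given with the table, the E15.5 levels were led by Ctrb1 (31539 CPM per kilobase), Clps (18841), Pnliprp1 (13473) and Cpa1 (5119). Cela1 (1139), Cel (1013), Spink3 (981) and Prss2 (784) followed. The SD over the 3 sets was 16809 for Ctrb1, 9091 for Clps and 4330 for Pnliprp1. All 3 genes were highest in set 2 and lowest in set 3, so these SDs do not measure how firm their order is. Within each set the order of the 3 was the same.

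Sequences upstream of the start sites of 6 members are shown because these genes span the order of appearance and include Pla2g1b, which did not follow it. They are the 250 bases before the RefSeq start site on the strand of the gene (GRCm38.p6), from Cpa1 and Cela1 (present at E10.5), Ctrb1 (E12.5), Amy2b (E14.5) and Prss1 (E15.5). Capitals mark CACCTG, an E-box, and TTTCCC, a TC-box, on either strand, and in full the pair CANNTG and TTTCCC, an E-box and a TC-box that lie 4 bases apart. That spacing was chosen after these promoters had been looked at.
Cpa1, chr6:30638968-30639217, plus strand: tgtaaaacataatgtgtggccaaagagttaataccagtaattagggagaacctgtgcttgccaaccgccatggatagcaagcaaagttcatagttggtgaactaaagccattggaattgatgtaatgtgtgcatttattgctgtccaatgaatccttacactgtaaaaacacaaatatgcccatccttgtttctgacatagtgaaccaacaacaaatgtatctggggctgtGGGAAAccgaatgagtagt
Cela1, chr15:100687921-100688170, minus strand: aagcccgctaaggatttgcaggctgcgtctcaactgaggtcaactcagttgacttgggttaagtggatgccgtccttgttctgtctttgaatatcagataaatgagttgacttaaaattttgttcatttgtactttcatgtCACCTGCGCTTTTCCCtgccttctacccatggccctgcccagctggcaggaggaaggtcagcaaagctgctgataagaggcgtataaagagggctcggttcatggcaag
Ctrb1, chr8:111691011-111691260, minus strand: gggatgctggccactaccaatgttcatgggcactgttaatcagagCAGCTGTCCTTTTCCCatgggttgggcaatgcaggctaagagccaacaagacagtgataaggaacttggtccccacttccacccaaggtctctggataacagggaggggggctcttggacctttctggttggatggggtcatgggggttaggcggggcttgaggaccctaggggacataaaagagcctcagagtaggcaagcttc
Prss1, chr6:41458680-41458929, plus strand: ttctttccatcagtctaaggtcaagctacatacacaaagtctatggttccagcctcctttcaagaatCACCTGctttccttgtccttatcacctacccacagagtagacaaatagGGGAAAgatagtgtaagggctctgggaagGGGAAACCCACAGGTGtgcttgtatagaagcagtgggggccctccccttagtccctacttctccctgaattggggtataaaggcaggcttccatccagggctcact
Amy2b, chr3:113156728-113156977, minus strand: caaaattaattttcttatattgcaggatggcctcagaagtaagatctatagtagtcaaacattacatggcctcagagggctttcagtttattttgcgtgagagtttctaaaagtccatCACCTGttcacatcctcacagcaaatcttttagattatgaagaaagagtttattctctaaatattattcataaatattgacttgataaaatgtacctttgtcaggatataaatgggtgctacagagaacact
Pla2g1b, chr5:115465892-115466141, plus strand: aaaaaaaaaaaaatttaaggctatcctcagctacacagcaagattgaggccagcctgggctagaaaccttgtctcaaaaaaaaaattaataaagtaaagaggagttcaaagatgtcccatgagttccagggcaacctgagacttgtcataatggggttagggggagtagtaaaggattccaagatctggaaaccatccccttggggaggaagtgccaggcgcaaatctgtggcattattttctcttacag

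The paired motif was found in Cela1, 109 bases before the start site, in Ctrb1 at 205 bases and in Prss1 at 106 bases. Promoters of 25 of the 31 members were matched by symbol among 32851 RefSeq promoters, and Clps, Ctrc, Zg16, Spink3, Try5 and Try10 were not. In these windows of 250 bases, both strands searched, 3 of the 25 held the pair, against 0.0791% of all promoters. CACCTG occurred in 15 (17.2% of all promoters) and TTTCCC in 8 (21.9% of all promoters). The pair holds TTTCCC and may hold CACCTG, and these may share 1 base where they abut. TATAAA, which overlaps neither, occurred in 10 (12.4% of all promoters). Cpa1, present from E10.5, held a single TC-box at 19 bases and no CACCTG, and Pla2g1b held none of the 4 motifs. A match is a description of the letters and shows no binding.

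Seen cell by cell, some pairs of members were nested and others were not. A cell was counted for a gene at 100 CPM or more. At E10.5, 38 of 80 Pdx1-Cre cells passed this level for Clps (47.5%, exact 95% interval 36.2 to 58.98%) and 34 for Cpa1, but 1 for Ctrb1 and none for Prss1. At E14.5, Ctrb1 was counted in 29 cells (23.02%) and Prss1 in none, which allows a share of up to 2.38%. At E15.5, 51 of 79 cells were counted for Clps, 50 for Ctrb1, 48 for Cpa1, 44 for Amy2b, 31 for Cela2a, 24 for Try10 and 18 for Prss1. Over all 604 Pdx1-Cre cells, each of the 18 cells with Prss1 also had Cpa1, while 239 cells had Cpa1 without Prss1. Likewise 55 cells had Amy2b together with Clps, none had Amy2b alone, and 249 had Clps alone. Ctrb1 was the partner of Clps in 104 cells, with 3 cells carrying Ctrb1 alone and 200 Clps alone. Rnase1 never occurred without Pnliprp1 (21 cells with both). Other pairs were not nested. Ctrb1 occurred without Spink3 in 51 cells (56 with both), without Tmed6 in 33 (74 with both), without Cel in 19 (88 with both) and without Cela1 in 17 (90 with both). Amy2b occurred without Spink3 in 10 cells (45 with both), and Reg1 without Ctrb1 in 9 (32 with both). These counts follow in part from the levels, since a cell with more of every transcript passes for more genes.

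The mean number of members per cell was highest at E15.5, but many cells of the middle days had none. On average a cell passed 100 CPM for 1.05 of the 31 genes at E10.5, 1.53 at E11.5, 1.91 at E12.5, 1.65 at E13.5 and 2.17 at E14.5. At E15.5 the mean was 9.05 (median 10, at most 21 genes). Cells with 10 or more members numbered none before E13.5, 2 of 108 at E13.5, 8 (6.35%) at E14.5 and 43 of 79 at E15.5.

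**Figure D3:**
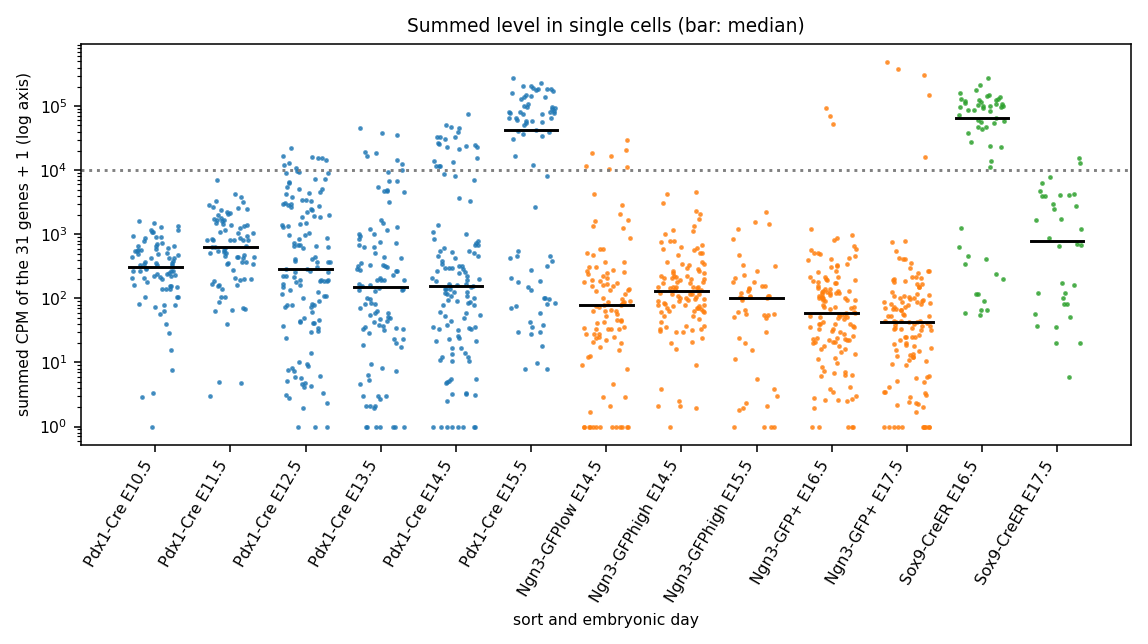
Summed CPM of the 31 genes plus 1 on a log axis in single cells of 13 sorts and days, 1 point per cell, with a bar for the median and a dotted line at 10000 CPM. Above the line lie 47 of 79 Pdx1-Cre cells of E15.5 and 41 of 55 Sox9-CreER cells of E16.5.

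Single cells at E14.5 and E15.5 differed widely in their summed level. With 10000 CPM of summed members as the dividing line, set after seeing the data, 22 E14.5 cells and 47 of 79 E15.5 cells lay at or above it. The median summed level was 24883 CPM in the former and 82076 CPM in the latter, against 105 and 98.1 CPM in the cells below. At E14.5, 6 cells above and 3 below lay within 2-fold of the line, and at E15.5, 2 above and 1 below. In the 3 E15.5 sets the cells above the line made up 62.5, 75.0 and 55.3% of cells and held at least 99.4% of all member reads. Some genes outside the list followed the same split at E15.5, and others did so less or not at all. Rbpjl, the acinar subunit of PTF1, passed 100 CPM in 47 of 47 cells above the line, and Ptf1a and Bhlha15, a factor of secretory cell architecture, in 42 each. Among the 32 cells below it, Rbpjl and Ptf1a passed in none and Bhlha15 in 3, whereas Chgb, an endocrine granule gene, passed in 19. Xbp1, another acinar factor, passed in 47 cells above the line and in 28 below, and Rab3d, a granule exocytosis gene, in 40 and 17. The duct genes Sox9, Spp1 and Krt19 passed in 27, 10 and 10 cells above the line and in 9, 5 and 4 below.

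Related genes outside the list were followed in the same tests. In the trend with day, 3 of 6 acinar transcription factors rose, Rbpjl (1.24 ± 0.20 log2 per day), Bhlha15 (1.26 ± 0.18) and Xbp1 (0.27 ± 0.06), with none lower. Of 12 genes for secretagogue receptors and granule exocytosis 6 rose, Rab3d, Rab27b, Cckar, Chrm3, Vamp8 and Rab26, and neither of the 2 tested trypsin-like paralogs did. Of 12 other acinar secretory genes 3 were tested, and all 3 rose. Among all genes tested for the trend, 3.11% were called higher. In the step from E14.5 to E15.5, 1 factor was called, Ptf1a (2.19 ± 0.48 log2, adjusted p = 0.032, edgeR), with means of 40.1 and 156 CPM. Gm5771 and Gm10334 were called among 5 tested trypsin-like paralogs, and none of the 12 receptor and exocytosis genes was called by edgeR. Of 8 tested other acinar secretory genes 1 was called higher. Among all genes tested for this step, 0.919% were called higher.

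E15.5 Pdx1-Cre cells were also compared with endocrine progenitors of the same day. Between E15.5 Pdx1-Cre and Ngn3-GFPhigh sets, 22 of 29 tested members were higher in Pdx1-Cre cells and none lower (edgeR), with 4.28% of 17595 genes called higher and 1.85% lower. The median difference of members was 10.9 log2 units against 0.02 for all genes. Of the called members, 10 were at 0 CPM in both Ngn3-GFPhigh sets and could pass the filter through the Pdx1-Cre sets alone, so the count is a description and no independent support. The summed level was 346 and 150 CPM in the 2 Ngn3-GFPhigh sets, under every Pdx1-Cre set. Ctrc, Ctrl, Gp2, Klk1, Pla2g1b, Try4 and Zg16 were not called. The count fell to 10 without set 1 and to 8 without set 2 of the Ngn3-GFPhigh cells, when a single set was assumed to vary like the other groups. Pla2g1b was at 11.4 and 5.49 CPM in Ngn3-GFPhigh cells, overlapping the Pdx1-Cre sets.

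Clps was the member with the highest mean in Ngn3-GFPhigh cells on each of their 3 days. It held 1113, 999 and 525 CPM at E13.5, with 61 of 77 cells at 100 CPM or more. It held 367, 434 and 157 CPM at E14.5 (46 of 108 cells), and 222 and 88.9 CPM at E15.5 (9 of 51 cells). The E13.5 sets lay above the later ones, and the E14.5 and E15.5 sets overlapped. No other member exceeded 200 CPM in a Ngn3-GFPhigh set, and Cpa1 had 179, 48.5 and 2.67 CPM at E13.5.

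Hormone-positive cells divided over Clps. Ins1-RFP+ sets held 2.57 and 3.31 CPM and Gcg-GFP+ sets 113 and 136 CPM, with 0 of 39 and 9 of 36 cells at 100 CPM or more. The difference of -5.23 ± 0.84 log2 was the 1 call among 29 tested members (adjusted p = 0.0321, edgeR), where 0.335% of 17595 genes were higher and 0.358% lower in Ins1-RFP+ cells. Without any single set the adjusted p lay between 0.0842 and 0.222, with the difference between -5.48 and -5.03. Pla2g1b was at 53.1 and 36.1 CPM in E15.5 Gcg-GFP+ sets and 64.1 CPM in the single E17.5 set, the groups with the highest means of this gene in the series. It was at 0.96 and 11.2 CPM in Ins1-RFP+ sets, below both Gcg-GFP+ sets, and the difference was not called (adjusted p = 0.56, edgeR). Tmed6 was found in every endocrine sort, at 77.2 and 79.0 CPM in Gcg-GFP+ and 26.3 and 49.9 CPM in Ins1-RFP+ sets. The summed level was 262 and 286 CPM in Gcg-GFP+ and 46.6 and 80.1 CPM in Ins1-RFP+ sets.

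**Figure D4:**
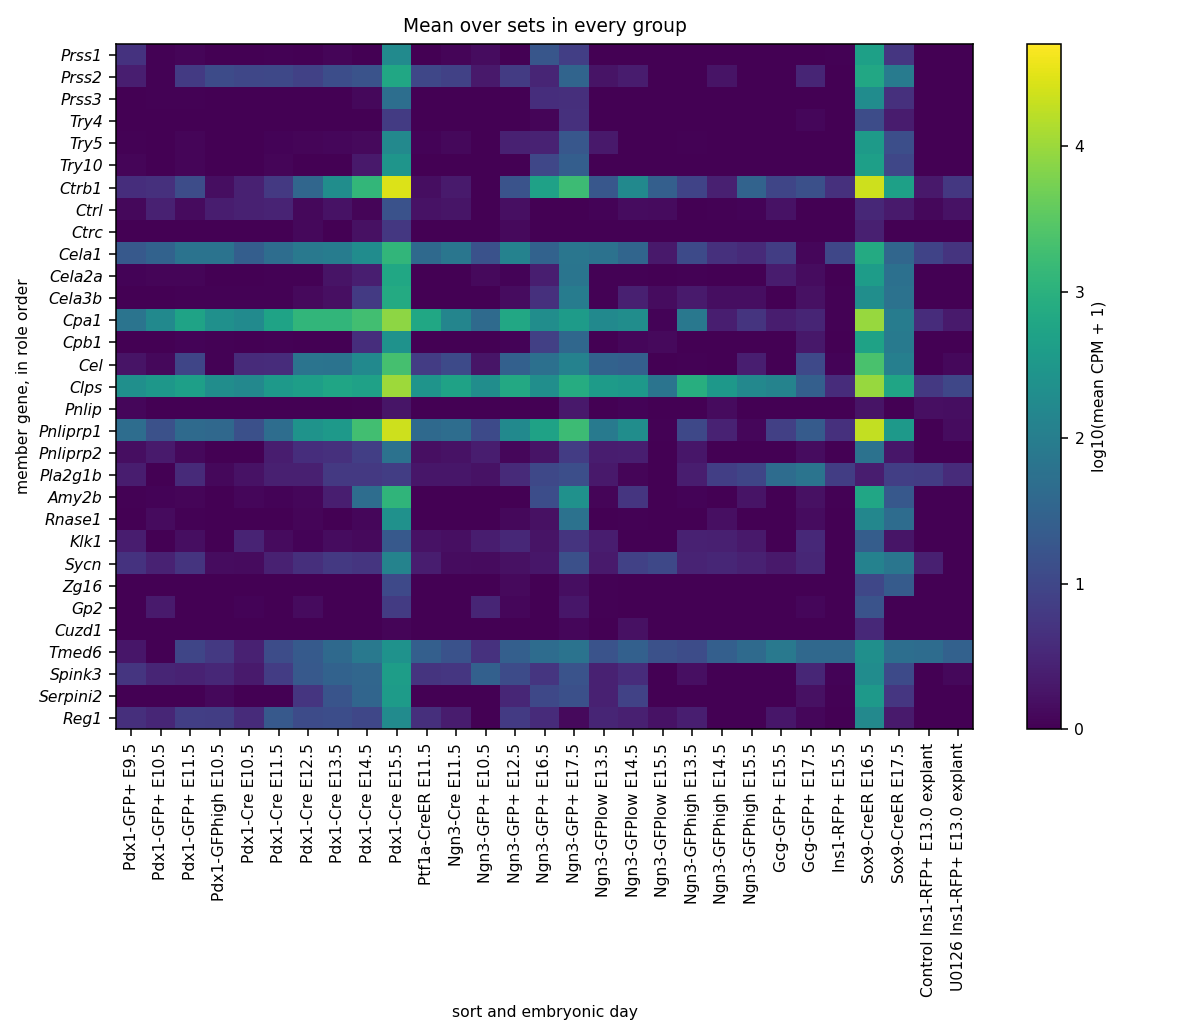
Heat map of the mean over sets for the 31 genes, in rows by role, in all 29 groups in columns, with color for log10(mean CPM + 1). Pdx1-Cre E15.5 and Sox9-CreER E16.5 are bright over most rows, and Clps is colored in Ngn3-GFPhigh cells.

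Ngn3-GFPlow and Ngn3-GFPhigh cells were compared on 3 days with 20 tested members each. At E13.5 no member was called by edgeR, against 4.61% of 18989 genes higher and 1.61% lower in the low sort. At an unadjusted p under 0.05, 1 member was higher, against 2831 of all genes, and DESeq2 called 1 higher, against 1767. At E14.5 the call was Klk1, with 0 CPM in all 5 low sets and 0.69, 3.55 and 0.65 CPM in the high sets (-8.38 ± 2.47 log2, adjusted p = 0.0455, edgeR, 9.01% of genes higher and 6.04% lower). Its levels were a few CPM, and without any single set the call was lost (adjusted p 0.0632 to 0.121, edgeR). Another 8 members were higher and 1 more lower at an unadjusted p under 0.05, against 3304 higher and 2491 lower of all 18989 genes. DESeq2 called 5 members higher and 2 lower, against 2582 and 1706 of all genes. At E15.5 no member was called by edgeR, with 5.58% of genes higher and 3.4% lower. At an unadjusted p under 0.05, 1 member was lower, against 2037 of all genes. DESeq2 called 1 member higher and 3 lower, against 2024 and 1638 of all genes. The low sorts also held cells with leukocyte markers, 51 of 118 at E13.5, 31 of 104 at E14.5 and 14 of 37 at E15.5, against none in the high sorts. Their part in these results was tested only by leaving them out, after which no member was called at E14.5.

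Set 1 of the E14.5 Ngn3-GFPlow cells stood apart. Its summed level was 3942 CPM and those of the other 4 sets were 546, 131, 109 and 315 CPM. All 7 cells of this sort above 10000 CPM of summed members were in set 1, and they held 95.9% of its member reads. Of these 7 cells, 6 passed 100 CPM for Ptf1a, 5 for Rbpjl and 6 for Sox9.

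At E11.5, before most enzymes appeared, Cpa1 separated the Ptf1a from the Neurog3 lineage. It held 858, 582 and 475 CPM in Ptf1a-CreER sets and 83.6 and 185 CPM in Ngn3-Cre sets, without overlap, and was the 1 call among 15 tested members (2.30 ± 0.38 log2, adjusted p = 0.0456, edgeR). Of all 17241 genes 0.336% were higher and 0.447% lower in Ptf1a-CreER cells. Cells at 100 CPM or more were 57 of 79 and 14 of 44. The call was lost without set 1 of the Ngn3-Cre cells (adjusted p = 0.182) or without set 2 (0.0635) or 3 (0.0546) of the Ptf1a-CreER cells. Clps, not called, stood at 419, 318 and 83.7 CPM against 505 and 532 CPM (-0.86 ± 0.54 log2, adjusted p = 0.413, edgeR).

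The cells sorted as ductal with Sox9-CreER carried a strong acinar profile at E16.5. Their summed level was 62575 and 73816 CPM at E16.5 and 1286 and 3050 CPM at E17.5, a 31.5-fold difference of means without overlap. At E16.5, 41 of 55 cells lay above 10000 CPM of summed members. Rbpjl passed 100 CPM in all 41, Bhlha15 in 38 and Ptf1a in 28, while the ductal genes Sox9 and Spp1 passed in 21 and 18. The other 14 cells had a median Spp1 level of 7033 CPM, against 54.8 CPM in the 41, and Sox9 and Spp1 passed in 11 each. At E17.5 the line was passed by 2 of 34 cells, which had no Rbpjl or Ptf1a at 100 CPM and a median of 25803 CPM of Spp1. At the level of sets, Spp1 was at 2239 CPM at E16.5 and 16315 CPM at E17.5, and the share of acinar and ductal cells in this sort cannot be told apart from the day.

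No member was called between the 2 days by edgeR, a comparison chosen after seeing the data. By the same adjusted test, 0.842% of 17225 genes were higher at E16.5 and 0.476% lower. At an unadjusted p under 0.05, 4 of 30 members were higher at E16.5, against 1450 of all genes. DESeq2 called 1 member higher, against 685 of all genes. The smallest adjusted p was that of Tmed6 (0.0527), with 208 and 224 CPM against 49.7 and 50.01 CPM. The median difference of members was 4.68 log2 units and that of all genes 0.00. Cpa1 held 10058 and 8606 CPM against 50.98 and 136 CPM, and Ctrb1 20320 and 24520 CPM against 334 and 618 CPM. A few genes did not share this. Zg16 was at 0 and 18.3 CPM at E16.5 and 21.7 and 20.8 CPM at E17.5, and Sycn was at 67.99 and 177 CPM and then 70.1 and 67.8 CPM. Pla2g1b held 2.42 and 0.42 CPM and then 8.91 and 3.97 CPM.

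Against Ngn3-GFP+ cells of E16.5 and E17.5, 5 of 30 members were higher in Sox9-CreER cells (Ctrl, Tmed6, Zg16, Prss2 and Sycn), none lower (edgeR). DESeq2 called 2 higher and 1 lower, against 2064 and 3291 of 17225 genes, and edgeR with a replicate block called 0. Of all genes 10.1% were higher and 14% lower. Sycn was the clearest (4.65 ± 1.06 log2, adjusted p = 0.00878, edgeR), with 67.8 to 177 CPM in the 4 Sox9-CreER sets and 0 to 44.9 CPM in the 8 Ngn3-GFP+ sets. The Ngn3-GFP+ sets were themselves uneven. Their summed levels were 110, 161, 3273 and 2994 CPM at E16.5 and 5328, 16410, 89.6 and 61.04 CPM at E17.5. Single cells carried this, since 3 of 130 cells at E16.5 and 5 of 125 at E17.5 lay above 10000 CPM, the highest at 487090 CPM. In sets 1 and 2 of E17.5 these cells, 1 and 4 in number, held 98.7 and 99.3% of the member reads. The count of higher members was 13 without set 2 of E17.5, 2 without either Sox9-CreER set of E16.5, and 3 or 2 without set 1 or 2 of Sox9-CreER E17.5.

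In explants, the U0126 treatment left no call on the members. The summed level in sorted Ins1-RFP+ cells was 99.2, 72.9, 46.5 and 60.3 CPM in control sets and 66.2, 64.9, 14.03 and 61.7 CPM with U0126, and the groups overlapped. Only 5 members had enough reads for a test (Cela1, Clps, Pla2g1b, Tmed6 and Ctrb1), and none was called by edgeR or DESeq2 or had an unadjusted p under 0.05, with 0.0% of 12632 genes called in either direction. The differences were -0.81 ± 1.02 log2 for Cela1, 0.80 ± 1.19 for Clps, -1.02 ± 0.93 for Pla2g1b, -0.68 ± 0.44 for Tmed6 and 2.21 ± 1.58 for Ctrb1. At the larger of these errors, such as those of Ctrb1 and Clps, changes of several-fold could go undetected. The error of Tmed6 was the smallest of the 5.

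The droplet libraries of whole E14.5 pancreas gave a view without sorting. After filtering, 3402 and 6575 cells remained in libraries 1 and 2, with medians of 9238.5 and 4901 UMIs (molecule counts), and 37 barcodes occurred in both. Acinar-like cells were named from 6 markers outside the member list. They numbered 357 in 1 cluster (10.49%) in library 1 and 958 in 2 clusters (14.6%) in library 2. With 1 library per batch and no second condition there was no test, and intervals cover counting error only. The summed members reached 6576 CPM (from UMIs, exact Poisson 95% interval 6526 to 6627) in acinar-like cells of library 1 and 10238 CPM (10187 to 10289) in library 2. The clusters pooled in library 2 differed, with 8239 CPM in 586 cells and 15337 CPM in 372 cells, a spread that the interval does not cover. The median acinar-like cell had UMIs for 9 and 10 members, at most 15 and 20, and spent 0.484 and 0.840% of its UMIs on them.

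The same few genes led in both libraries. Clps stood at 2869 and 1943 CPM in acinar-like cells of libraries 1 and 2, Ctrb1 at 1374 and 3568, Cpa1 at 1129 and 2081, and Pnliprp1 at 306 and 1446. Clps was thus the highest in library 1 and Ctrb1 in library 2. Spink3 held 457 and 183 CPM and Cela1 200 and 397 CPM. Late genes of the Pdx1-Cre series were low and differed between libraries. Prss1 was at 0.099 and 21.6 CPM, Try10 at 0.198 and 22.3, Cela2a at 0 and 23.2, and Rnase1 at 0.990 and 12.9. Library 2 had shallower cells, and the labels give both libraries the same day. Gp2 and Cuzd1 stayed at or under 0.198 CPM, and Pnlip held 1.09 and 2.75 CPM.

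Reads of these genes also occurred in cells not known to make them. In mesenchyme-like cells the summed members were at 47.4 and 184 CPM, and 29.9 and 49.3% of cells had at least 1 UMI, at median depths of 7874.5 and 3864 UMIs. The highest level outside acinar-like cells was that of the 61 erythroid-like cells of library 2, at 3239 CPM, of whose member UMIs 5 cells held 86.7%, against 38.6 CPM in erythroid-like cells of library 1. Endothelium-like cells held 38.5 and 234 CPM, and 1 cluster of 15 such cells in library 2 held 972 CPM. Duct and trunk-like cells held 448 and 716 CPM. Endocrine progenitor-like cells held 1216 and 658 CPM, and Clps alone made up 1139 and 305 CPM of this, against 11.0 and 29.03 CPM of Clps in mesenchyme-like cells. Ctrb1, in contrast, was at 12.4 and 118 CPM in endocrine progenitor-like cells and at 8.05 and 61.3 CPM in mesenchyme-like cells. The ratio of Clps to Ctrb1 in endocrine progenitor-like cells therefore differed from that in mesenchyme-like cells in both libraries. Pla2g1b was at 16.3 CPM (interval 10.9 to 23.3) in beta-like cells of library 2 and at 3.15 CPM (2.31 to 4.19) in acinar-like cells, while mesenchyme-like cells held 0.108 CPM.

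**Figure D5:**
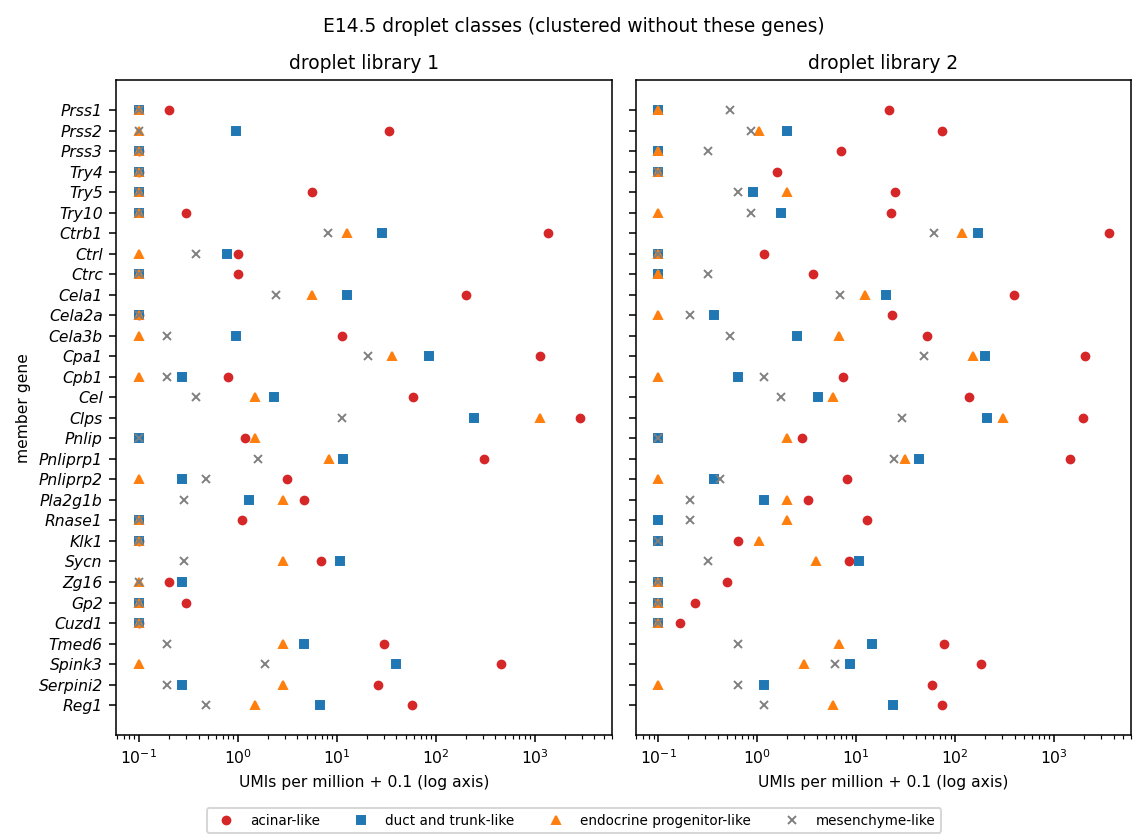
Level of 30 members in acinar-like, duct and trunk-like, endocrine progenitor-like and mesenchyme-like cells of each droplet library, in CPM from UMIs plus 0.1 on a log axis. Clps is at 1139 and 305 in endocrine progenitor-like cells and at 11.0 and 29.03 in mesenchyme-like cells.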

How the data were processed

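Smart-seq2 reads were counted per gene by the authors with HTSeq 0.6.0 after alignment with TopHat2 2.1.0 and Bowtie2, and droplet UMI counts came from Cell Ranger 2.0.2, on mm10, per the submitters' processing notes. The deposited counts were raw whole numbers. The 92 ERCC rows were left out of totals, and counts were summed per set. The members and all lists were chosen with earlier results of these data known. All 31 members were named by role, with full statistics for the highest of a role and for those whose call differed from it, and other lists were given as counts. edgeR 4.0.16 (R 4.3.3) fitted TMM-scaled sums with its quasi-likelihood test after filterByExpr, with Benjamini-Hochberg adjustment over all tested genes at 0.05, and was tested on simulated data. DESeq2 1.42.0, other scaling, no filter, a replicate block and leaving out sets were alternatives. Droplet cells were kept from 1000 detected genes up and to 10% mitochondrial UMIs and were clustered in scanpy 1.11.5 without the members (2000 variable genes, 30 components, 15 neighbours, Leiden resolution 1). The doublet caller marked 4 cells (0.117%) in library 1, so it did not work there, and 189 (2.79%) in library 2. Classes were named by a rule chosen after seeing the data, and 4 and 3 clusters (559 and 1156 cells) stayed unnamed.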

Additional observations from a re-analysis of the deposited data

Results flagged for a closer look

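In groups of 4 to 10 sets, the gap between an extreme set and its nearest neighbour was compared with the range of the group for 76 values, and 15 stood far from the others. The cutoffs give about 1 in 20 for independent, normally distributed values. These values are members of the same sets and their sums, so that rate does not apply to them. Set 1 of the E14.5 Ngn3-GFPlow cells held 6 of these, with 3942 CPM summed over the members, 816 CPM of Ctrb1, 120 CPM of Cela1, 984 CPM of Cpa1, 129 CPM of Cel and 990 CPM of Pnliprp1. Set 2 of the E17.5 Ngn3-GFP+ cells held another 6, with Try5 at 66.02, Try10 at 95.3, Cela2a at 254, Cpb1 at 129, Amy2b at 847 and Sycn at 44.9 CPM. Spink3 stood apart at 47.2 CPM in set 2 of Pdx1-Cre E12.5, and Ctrb1 at 389 CPM in set 2 of Pdx1-Cre E13.5. The summed level of 14.03 CPM in U0126 set 3 lay below the other 3 treated sets.

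Several sorts entered no comparison and still carried reads of the members. The summed level averaged 378 CPM in Pdx1-GFP+ cells of E9.5, 531 CPM in those of E10.5 and 1119 CPM in those of E11.5. It was 552 CPM in Pdx1-GFPhigh cells of E10.5. Ngn3-GFP+ cells held 306 CPM at E10.5 and 1731 CPM at E12.5. The single Gcg-GFP+ set of E17.5 held 189 CPM.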

How the results depend on the processing

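Of 1078 member calls taken to an alternative, 936 were kept, 142 were lost and 0 changed sign. With DESeq2 the count of members was 1 higher from E12.5 to E13.5, 2 from E13.5 to E14.5, 1 for Ngn3-GFPlow against high at E13.5, 5 higher and 2 lower at E14.5, and 1 higher and 3 lower at E15.5. It was 3 lower for Ins1-RFP+ against Gcg-GFP+ cells, where DESeq2 called 626 of 17595 genes lower. The count was 2 higher and 1 lower for Sox9-CreER against Ngn3-GFP+ cells, and 1 between the Sox9-CreER days. Correlations of same-numbered sets ran from -0.127 to 0.142. With so few sets per group they cannot show whether set numbers pair the samples, and the labels do not say. With a replicate block the counts were 1 higher from E13.5 to E14.5, 1 higher and 0 lower for the E14.5 Ngn3-GFP sorts, and 0 for Ptf1a-CreER, Ins1-RFP+ and Sox9-CreER comparisons. Without sets of under 10 cells 8 members were higher at E15.5 and 0 in Ptf1a-CreER cells, and without leukocyte-marker cells 0 were lower in the E14.5 Ngn3-GFPlow sort. Leaving out 1 set at a time gave 16 to 23 members in the trend, 0 to 1 from E13.5 to E14.5 and 9 to 22 from E14.5 to E15.5. It gave 0 to 1 in either direction for the E14.5 Ngn3-GFP sorts, 0 to 1 for Ptf1a-CreER, 8 to 22 for Pdx1-Cre against Ngn3-GFPhigh, 0 lower for Ins1-RFP+ and, for Sox9-CreER against Ngn3-GFP+, 2 to 13 higher and 0 to 1 lower. At 1 CPM the members present by E10.5, E11.5, E12.5, E13.5 and E14.5 numbered 10, 13, 14, 15 and 19, and at 100 CPM 2, 2, 3, 4 and 6. With the main level of 10 CPM, the omission of 1 set gave 8 to 11 members present by E13.5. Mean members per cell from E10.5 to E15.5 were 2.18, 3.64, 3.84, 3.21, 3.90 and 12.7 at 10 CPM, and 0.0375, 0.338, 0.427, 0.463, 0.802 and 4.53 at 1000 CPM. Acinar-like cells of droplet library 1 held 6356, 6357 and 6350 CPM with at least 500 genes, at least 2000 genes and doublets kept, and those of library 2 held 11020, 10174 and 10354 CPM with at least 500 genes, at least 2000 genes and resolution 2. The cause of these changes was not tested.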
